A study of Mus musculus with 2 samples.

Results

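The cytosolic ribosomal protein genes were compared between 2 clones derived from the mouse embryonic stem cell line E14tg2a. Members were the genes with their own probe set whose symbol is Rpl or Rps followed by a digit, or Rplp0, Rplp1, Rplp2 or Rpsa, with the Rps6k kinase genes left out. The rule found 49 of the 12393 genes measured. Of these, 42 encode a subunit of the standard ribosome and are called core genes here: 20 of the small and 22 of the large subunit. The other 7 are 5 paralogs (Rps27l, Rps4l, Rpl22l1, Rpl39l and Rpl3l), the assembly factor gene Rpl7l1 and the pseudogene Rps15a-ps6. The study asked which transcripts differ when Dab2, an endocytic adaptor gene, is targeted. The shDAB2 sample was clone 4 of E14tg2a cells stably transfected with the shDAB2-285 plasmid, and the vector sample was clone 9 of cells stably transfected with the control plasmid. Both grew in GMEM with 10% fetal bovine serum and LIF (leukaemia inhibitory factor) at 1000 U/ml. RNA of each clone was measured on 1 array of the Affymetrix mouse 430A type, so hairpin, clone and culture cannot be told apart, and no test across samples exists.

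The cytosolic ribosome is built from a small subunit, which decodes the mRNA, and a large subunit, which forms the peptide bond. Each subunit joins ribosomal RNA to a fixed set of proteins that are usually made in matched amounts. Their mRNAs are among the most abundant of a growing cell. In vertebrates they begin with a 5′ terminal oligopyrimidine (TOP) tract, a C followed by a run of C and T letters, through which growth signals are known to control their translation.

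Values below are log2 signals after RMA, and a difference is the shDAB2 value minus the vector value. Where a pair of signals is given, the shDAB2 value stands first and the vector value follows. Signals ran from 5.65 to 12.86, and the arrays correlated at r = 0.99 across 22626 probe sets. Dab2 itself read 6.33 and 6.64 on its brightest probe set, and differed by -0.05 and -0.01 on the others. The cells' label was met by 8 of 8 embryonic stem cell markers above the array median of 6.62, Pou5f1 at 9.93 and 9.83 among them. Of 21 markers of endoderm, trophectoderm, mesoderm, neuroectoderm and feeder fibroblasts, 4 reached that median on either array, with 7.73 as the highest value. In bulk RNA, fewer cells of a type and less RNA per cell cannot be told apart.

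On its brightest probe set, none of the 42 core genes differed by 1.2-fold, a log2 difference of 0.263, in either direction. On the second brightest, 3 of the 21 core genes that have a second probe set were lower by that much and 0 higher. They were Rps28, Rps20 and Rpl22, the last with a mean signal under 9 there. The share over second probe sets of all genes was not computed. On brightest probe sets, 4.69% of all genes passed that limit upwards in the shDAB2 clone and 5.21% passed it downwards. The core differences ran from -0.258 to 0.254 with a median of -0.04 and an SD of 0.10, where the median over all genes was 0.01 and the SD 0.17. Core genes within 0.2 of zero numbered 39 of 42 (92.9%), against 84.2% of all genes. The set was lower in 27 and higher in 15 genes, while 45.9% of all genes were lower. The median changed sign to 0.04 without probe sets of the kinds _s_at, _x_at and _a_at and to 0.05 without the brightest genes. Most genes left in those settings had a mean signal under 9. Over the 6 plain _at probe sets of signal at least 9 the median was -0.02, with 4 lower. On second brightest probe sets the core median was 0.01, and those of Rpl22, Rpl27a, Rps4x, Rps6, Rps9 and Rpsa had a mean signal under 9. Over all 64 core probe sets of signal at least 9 the median was -0.05, with 42 lower. Since the sign depends on the probe sets used, no direction is given for the family as a whole. The core median stayed negative under both other scalings, at -0.05 after cyclic loess and -0.03 after centring.

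**Figure D1:**
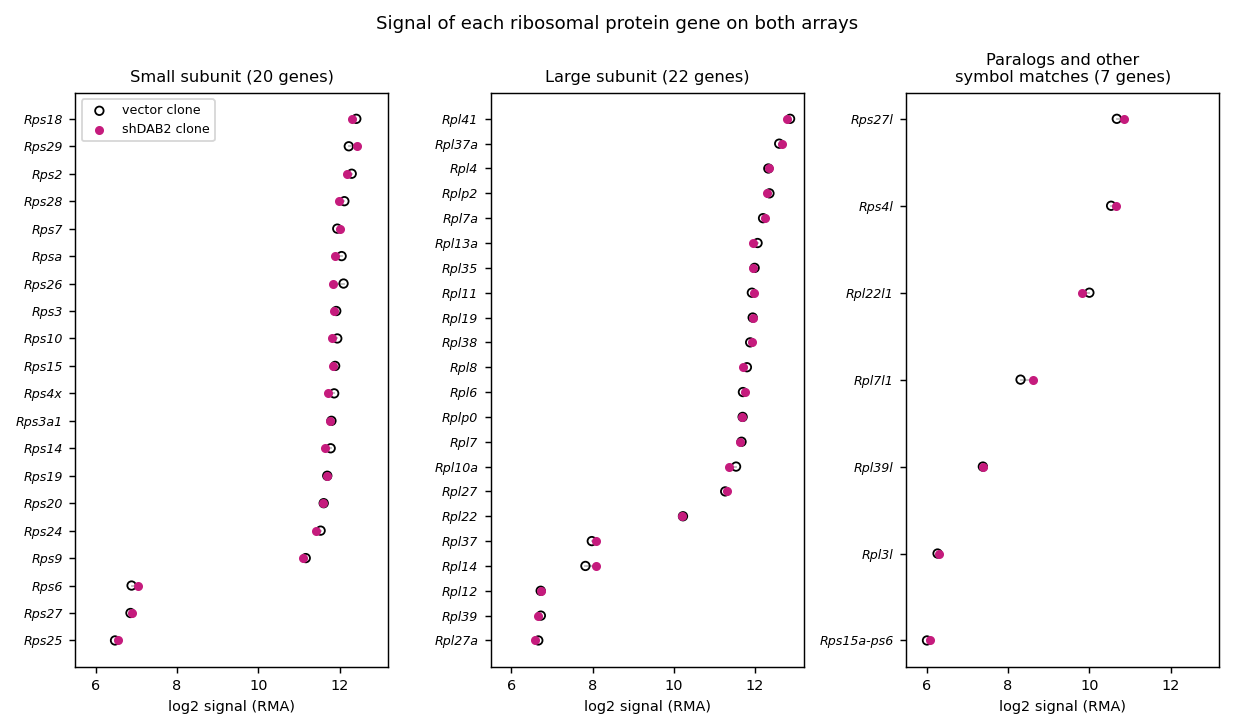
Log2 RMA signal of each of the 49 genes in the vector clone (open circles) and the shDAB2 clone (filled circles), in 3 panels, ordered by mean signal. Most core genes sit above 11 with both points nearly on top of each other, and 8 core genes have mean signals of 6.51 to 8.03.

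The ribosomal protein probe sets crowded the bright end of the arrays. Of the 42 core genes, 33 reached 10.87, the 99th percentile of all values, and only 92 genes of the whole array did. The members held 14 of the 20 brightest places. Signals of different probe sets are not abundances, because probes differ in affinity, so these positions describe the arrays and do not rank the transcripts. The brightest were Rpl41 (12.78 and 12.86), Rpl37a (12.65 and 12.59), Rps18 (12.31 and 12.41), Rpl4 (12.33 and 12.32) and Rps29 (12.43 and 12.23). Rpl41, which encodes the smallest ribosomal protein, held the highest value on the vector array.

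The spread of the differences varied with signal. Its SD was 0.10 over the 7529 genes of mean signal under 7, 0.32 over the 465 genes of 9 to 10 and 0.27 over the 155 of 10 to 11. Among genes outside the family it was 0.17 over the 34 of 11 to 12 and 0.11 over the 6 above 12. The 33 core genes at or above the 99th percentile had an SD of 0.09. All 33 had a mean signal of at least 11, and the 40 genes outside the family with such a mean had an SD of 0.17. The 59 genes outside the family that reached that percentile, some of them dimmer than 11, had an SD of 0.30 and ran from -1.32 to 0.54, and 5 of them passed 1.2-fold upwards and 7 downwards. Saturation of the brightest probes can compress differences, and its part in the narrow range of the ribosomal proteins was not tested, since scanner intensities were not analysed here.

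**Figure D2:**
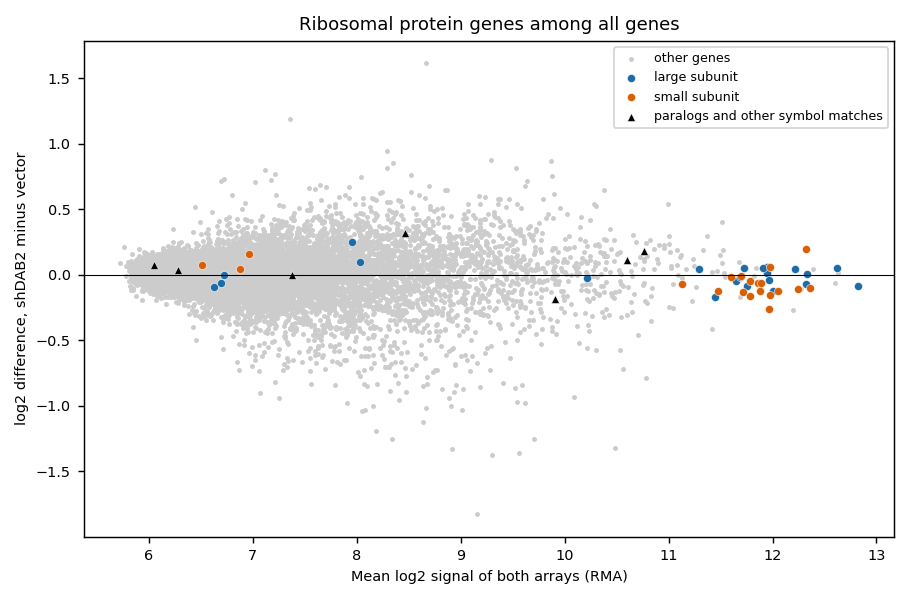
Log2 difference (shDAB2 minus vector) against the mean log2 signal of both arrays for 12393 genes, with the small subunit, large subunit and other symbol matches marked. Most members lie in the bright tail on the right, within 0.26 of zero, while the cloud of other genes is widest between 8 and 10.

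Most small subunit genes lay slightly lower in the shDAB2 clone on their brightest probe sets. Of the 20 genes, 15 were lower, 5 were higher and the median was -0.07. The median turned positive, at 0.06 and 0.07, without _s_at, _x_at and _a_at probe sets and without the brightest genes. Most genes left in the first setting, and all in the second, had a mean signal under 9. The bright genes left in the first, Rps15 and Rpsa, differed by -0.15 each. Among the 17 small subunit genes with a mean signal of at least 9, 15 were lower and the median was -0.10. The lowest was Rps26, which encodes a protein near the mRNA exit of the small subunit, at 11.84 and 12.10. Its difference of -0.258 rests on 1 probe set and stopped just short of the 1.2-fold limit.

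Next came Rps4x, the X-linked gene of its family, at 11.70 and 11.87. Rpsa, which encodes a small subunit protein also known as a laminin receptor, read 11.89 and 12.05, and Rps14, whose human counterpart is lost in the 5q- syndrome, 11.65 and 11.78. All 3 were thus lower, with differences of -0.16, -0.15 and -0.13. The second probe sets of Rps4x and Rpsa were dim, at about 6.8 and 6.4, and differed by 0.05 and 0.06. That of Rps14 was bright and differed by -0.03.

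Rps29 went the other way. It read 12.43 and 12.23, a difference of 0.20, and its other probe sets differed by 0.06 and 0.10. Rps7 was 0.06 higher on its brightest probe set but -0.20 on its second. These were the only bright small subunit genes with a positive value. Rps19 and Rps20 were nearly level, at -0.01 each, although a second probe set of Rps20 gave -0.27. Rps19 is the gene most often mutated in Diamond-Blackfan anaemia, an inherited ribosome disorder in humans.

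Large subunit genes were balanced. Of 22 genes 12 were lower and 10 higher, and the median was -0.01; it was 0.01 with the mean of all probe sets. The lowest was Rpl10a, at 11.36 and 11.53, a difference of -0.17 on its only probe set. Rpl13a followed at -0.12, and 3 of its 4 probe sets were lower. Rpl11, whose protein binds the p53 regulator MDM2 when ribosome assembly fails, read 11.98 and 11.92, a difference of 0.06. Rpl38, known in mouse for its part in the translation of Hox mRNAs, was also 0.06 higher, at 11.93 and 11.88.

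The stalk of the large subunit, which recruits elongation factors, is formed by the P proteins. Rplp0 read 11.68 and 11.69, a difference of -0.02. Rplp2 read 12.29 and 12.35, a difference of -0.07. Rplp1 and Rpl5 were not analysed here. Among the X-linked core genes, Rpl39 differed by -0.06 beside the -0.16 of Rps4x.

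Of the 5 highest core differences, 4 came from dim probe sets. Rpl14 read 8.08 and 7.83, a difference of 0.254, the highest of the core. Rps6, which encodes the best-known target of the S6 kinases, read 7.04 and 6.88, a difference of 0.16, and its second probe set differed by 0.01. Rpl37 differed by 0.10 and Rps25 by 0.07. The dimmest probe sets belonged to Rps25, Rpl27a, Rpl39, Rpl12 and Rps27, with means of 6.51 to 6.88 and differences from -0.09 to 0.07.

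In all, 8 core genes had a mean signal under 9: Rps6, Rps25, Rps27, Rpl12, Rpl14, Rpl27a, Rpl37 and Rpl39. For 8 of these 8, the same symbol also stands on a probe set that lists further genes, with mean signals from 10.8 to 12.8. Such probe sets name no single gene and were kept out of the values. A dim reading here thus belongs to the probe set left after that choice and does not describe the gene's transcript level. The 8 had a median difference of 0.06, and the 34 brighter core genes a median of -0.05. The core genes Rps2, Rps3, Rps3a1, Rps9, Rpl6, Rpl7a, Rpl8, Rpl19 and Rpl27 were bright, with differences between -0.11 and 0.05.

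Probe sets of the same gene measured the spread that bears on all these values. Over 15 core genes with several probe sets of signal at least 9 (45 probe sets), the SD of 1 probe set around its gene's mean difference was 0.16. The differences of all 64 core probe sets of such signal had an SD of 0.15. The SD of 0.10 between core genes is over another set, the brightest probe set of each of the 42 genes, dim ones included. Over 2500 genes of the array with 2 probe sets above the median signal, the SD was 0.11. By that same rule it was 0.13 over 18 core genes. The widest of the 15 core genes was Rps10, whose bright probe sets ran from -0.47 to 0.10, followed by Rpl35, from -0.11 to 0.36. Rps24 ran from -0.18 to 0.21. On its brightest probe set Rps10 differed by -0.12, Rpl35 by -0.04 and Rps24 by -0.12.

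Only 7 of the 15 genes kept 1 sign on every bright probe set. Rps14, Rps15, Rps18, Rps20 and Rps28 were lower on all of theirs, and Rps29 and Rpl37a higher. The 2 brightest probe sets of a gene could lie over 0.2 apart. Rpl41 gave -0.08 and 0.14, Rpl7 -0.04 and 0.19, and Rps28 -0.12 and -0.36. Rpl22 gave -0.02 on a bright and -0.32 on a dim probe set. Counted by probe set, 28 of 34 bright small subunit probe sets were lower with a median of -0.11, and 14 of 30 of the large subunit with a median of 0.01. This contrast between the subunits has no test with 1 array per clone.

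**Figure D3:**
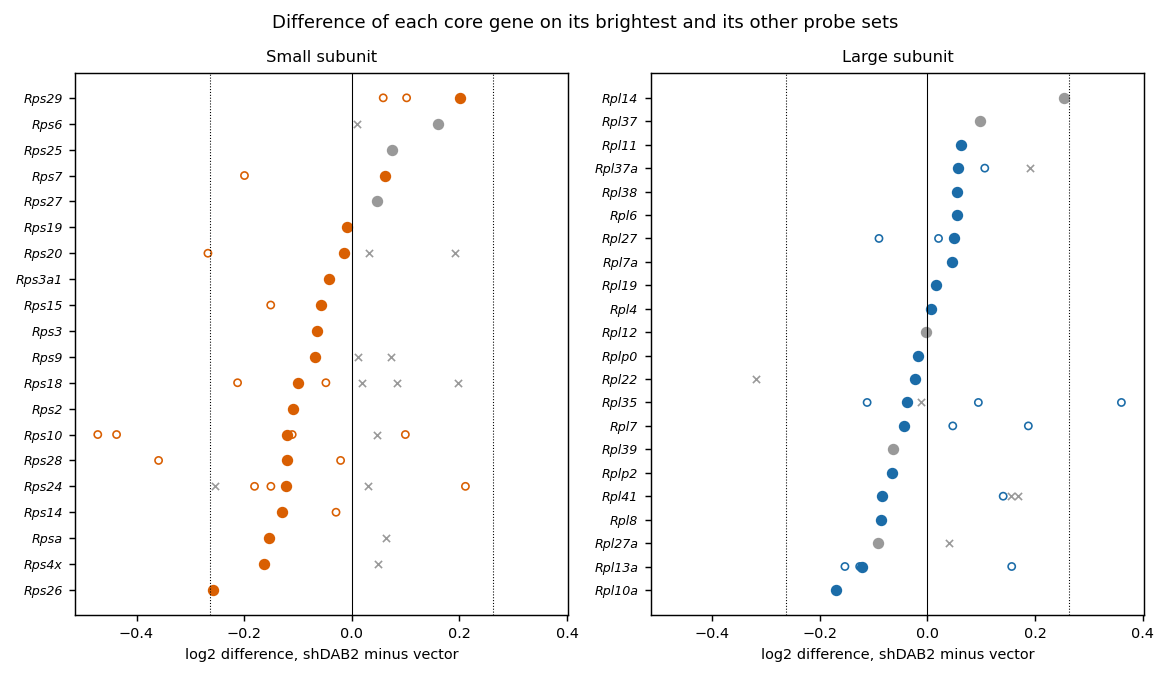
Log2 difference of each core gene on its brightest probe set (large filled points) and on its other probe sets of signal at least 9 (open circles) or below 9 (crosses); large grey points mark a brightest probe set below 9, and dotted lines mark 1.2-fold. On brightest probe sets small subunit genes gather left of zero and large subunit genes around it. Without _s_at, _x_at and _a_at probe sets the small subunit pattern did not hold, and most genes left were then dim. Other probe sets of Rps10, Rps28 and Rpl35 lie far from the brightest.

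At the lower limit of 1.1-fold, 3 core genes were higher (Rpl14, Rps29 and Rps6) and 4 lower (Rps26, Rpl10a, Rps4x and Rpsa). These are 7.14% and 9.52% of the core, where 13.5% and 13.4% of all genes passed. At 1.5-fold the core count was 0 in each direction, against 0.339% higher and 0.952% lower over all genes.

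The paralogs and other symbol matches were read beside the core genes they resemble. Rpl7l1, known in human cells as a nucleolar factor of large subunit assembly, was the only member past 1.2-fold. It read 8.63 and 8.31, or 1.25-fold higher, and its probe sets differed by 0.32 and 0.21. Rpl7 differed by -0.04. Rps27l, a p53-inducible paralog of Rps27 in human cells, read 10.86 and 10.68, a difference of 0.18, but its other probe sets gave -0.04 and 0.07. The dim probe set of Rps27 differed by 0.05.

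Rpl22l1, which can take the place of Rpl22 in the ribosome, read 9.82 and 10.00, a difference of -0.18 on its only probe set. Rpl22 read 10.20 and 10.23. Rps4l, annotated in RefSeq as a transcribed pseudogene, was bright at 10.65 and 10.54, a difference of 0.12 where Rps4x had -0.16. Pseudogenes and their parent genes can share probe matches, so the source of this signal is uncertain. Rpl39l, known for its expression in testis, read 7.38 on both arrays. The muscle gene Rpl3l and the pseudogene Rps15a-ps6 lay below the array median, at 6.27 to 6.30 and 6.01 to 6.08.

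Promoter windows of RefSeq (GRCm38.p6) were found for 42 of the 49 members, 37 of them core genes. The 30 bases around the annotated start, 15 before it and 15 from it on, were searched on the strand that reads as the mRNA. The search was for a C followed by at least 4 letters that are each C or T. Such a run stood in 24 of 37 core genes (64.9%), against 43.2% of 9882 array genes and 40.3% of all 27025 genes with a window. The letters CCGGAAG, which transcription factors of the ETS family are known to bind, stood on either strand of the 300-base window in 19 of 37 core genes (51.4%) and in 16.4% of array genes. TATAAA stood on either strand in 13.5% and 11.9%, and ATGGCGGC in 2.70% and 4.50%. On the other strand CCGGAAG reads CTTCCGG, whose first 5 letters meet the rule for a run; with those sites masked, a run still stood in 24 of 37 core genes and in 41.8% of array genes. All these are matches of letters. The median difference was -0.03 over core genes with the pyrimidine run and -0.04 over the 13 without it.

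The start windows of the core genes at either end of the difference range, of those with the longest runs among the 32 core genes with a single annotated start, of 2 low genes without a run and of 2 further members are shown to let their starts be compared, 5′ to 3′, with each run in capitals.
Rps26 (chr10:128626492-128626521, minus strand): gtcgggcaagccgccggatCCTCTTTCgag
Rpl14 (chr9:120571502-120571531, plus strand): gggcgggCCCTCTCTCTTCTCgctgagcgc
Rps6 (chr4:86857353-86857382, minus strand): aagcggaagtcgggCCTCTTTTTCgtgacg
Rpl7a (chr2:26910792-26910821, plus strand): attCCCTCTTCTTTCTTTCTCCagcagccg
Rpl27a (chr7:109519180-109519209, plus strand): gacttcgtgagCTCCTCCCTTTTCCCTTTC
Rpl35 (chr2:39005117-39005146, minus strand): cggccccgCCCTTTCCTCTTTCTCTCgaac
Rps4x (chrX:102189377-102189406, minus strand): ctgaggctgggcggagcaacccaggctcca
Rpsa (chr9:120127751-120127780, plus strand): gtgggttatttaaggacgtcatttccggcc
Rpl22l1 (chr3:28805493-28805522, plus strand): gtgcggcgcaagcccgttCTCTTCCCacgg
Rpl7l1 (chr17:46782642-46782671, minus strand): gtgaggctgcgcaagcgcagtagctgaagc
Rps26 at -0.258 and Rpl14 at 0.254, the ends of the range, both held a run, of 8 and 14 letters. The longest runs within the window among those 32 genes were 19 letters in Rpl7a and Rpl27a and 18 in Rpl35. These genes differed by 0.05, -0.09 and -0.04. The run of Rpl27a ends at the last base of the window, so its full length was not measured. Rps4x, Rpsa and Rpl7l1 held none in this window.

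Genes whose products build the ribosome lay mostly higher in the shDAB2 clone. Of 40 measured genes of rRNA synthesis and processing 32 were higher and 8 lower, and the median was 0.18; 9 passed 1.2-fold upwards and 0 downwards, where 4.69% and 5.21% of all genes did. Their median signal was 8.43, and the 1255 genes of signal 8 to 9 had a median difference of 0.02 with 46.7% lower, 14.3% past 1.2-fold upwards and 15.1% downwards. The largest were Nop10, of the snoRNA particles that modify rRNA (10.56 and 10.04), and Nolc1, a nucleolar partner of such particles (8.95 and 8.45). Imp4, of the U3 snoRNA particle, read 8.27 and 7.80, and Polr1b, a core subunit of RNA polymerase I, 7.78 and 7.36. Second probe sets gave smaller values, 0.19 for Nop10, 0.31 for Nolc1 and 0.07 for Imp4, against 0.53, 0.50 and 0.48 on the brightest.

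Factors of large subunit assembly had a median of 0.08 over 33 genes, 24 higher and 9 lower, with 7 past 1.2-fold upwards and 0 downwards. Their median signal of 8.29 lay in the same band of 8 to 9, where 14.3% passed upwards and 15.1% downwards, against 4.69% and 5.21% of all genes. Nop16, a nucleolar assembly factor, was the highest at 0.75, but 0.10 on its second probe set. Nip7, of pre-rRNA processing, stood at 0.49 and, on its second probe set, at -0.03, so its direction is uncertain. Ddx18, an RNA helicase, gave 0.37 and 0.41 on its brightest and second probe sets, but 0.26 as the mean of all its probe sets. Eif6, which keeps free large subunits from joining small ones, gave 0.36 on its only probe set.

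Other genes with TOP mRNAs, mostly translation factors, had a median nearer to that of the ribosomal proteins but a wider spread. Of 15 measured 10 were lower and 5 higher, and the median was -0.08. The SD was 0.21, where the core had 0.10. At 1.2-fold 2 passed upwards and 2 downwards, 13.3% each, against 4.69% and 5.21% of all genes and 0 core genes. The median signal of the list was 10.56. Among the 155 genes of signal 10 to 11, 11.6% passed upwards and 14.2% downwards, with an SD of 0.27. The list thus did not stand out from genes of that brightness in its share or its spread. On second probe sets the median was -0.005, with 5 higher and 6 lower. Eef2, the translocation factor of elongation, read 11.21 and 11.62, or 1.33-fold lower. Tpt1 differed by -0.27, but by 0.06 on its second probe set. Nap1l1, a histone chaperone gene, was 0.42 higher (0.18 on its second probe set) and Eef1d, an exchange factor of elongation, 0.27 higher (0.22). Npm1 stands in this list and in that of rRNA processing and was 0.15 higher. Of ribosomal proteins named by another pattern, Fau was measured and read 11.72 and 11.63, a difference of 0.10.

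Mitochondrial ribosomal proteins, which serve the separate ribosome of that organelle, had 56 of 74 genes higher and a median of 0.11. Their signals were lower, with a median of 8.12 where the core had 11.78. After cyclic loess the medians were 0.16 for rRNA processing, 0.09 for mitochondrial ribosomal proteins, 0.08 for large subunit assembly and -0.10 for the other TOP genes. With the mean of all probe sets they were 0.14, 0.10, 0.11 and -0.07, so the order of the middle lists depends on the choice of probe set. Whether the lists differ from the core has no test with 1 array per clone.

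**Figure D4:**
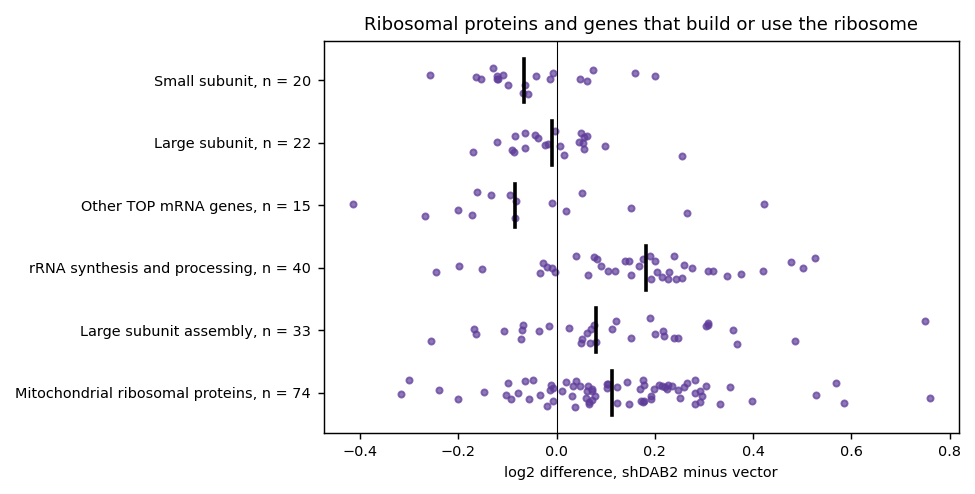
Log2 difference of each gene (points, spread vertically at random) and the median (black bar) for both subunits and 4 further lists. The ribosomal proteins gather near zero, rRNA synthesis and processing genes mostly lie to the right at a median of 0.18, and the other TOP genes at -0.08.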

How the data were processed

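The deposited table holds 1 log2 value per probe set and array, made by the authors with RMA, per the submitters' processing notes; its version and the log base: not given in the sources used here. RMA quantile-normalizes the arrays, so a shift shared by most bright probe sets is not measurable, and core ribosomal proteins were 33 of the 92 genes at or above the 99th percentile. Of 22626 probe sets, 20380 with 1 gene symbol in the platform annotation were used, 691 had several symbols and 1555 were unnamed here. Each gene was represented by its brightest probe set (mean of both arrays). Chromosomes came from RefSeq (GRCm38.p6), which matched 49 of 49 members. Differences are described by size, since 1 array per group gives no test, and precision is limited by that number. The samples were grouped by title. Members, lists and limits were chosen with earlier results of these data known. Named genes are members past 1.2-fold, the 5 highest, lowest, brightest and dimmest core genes, paralogs with partners, P protein and X-linked genes, Rpl5, Rpl11, genes whose brightest probe sets disagree by over 0.2, Dab2, and up to 4 genes per list; other genes were named after their values were seen. Alternatives used limma 3.58.1 in R 4.3.3 and Python 3.11.15. Only the share past the fold limit and the median of a list were tried on simulated data, with independent noise of 1 size for all genes. The spread on these arrays varied with signal, so the simulation did not match it.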

Additional observations from a re-analysis of the deposited data

How the results depend on the processing

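No paired analysis was possible because each group holds 1 array. Over 11 alternatives the core median ran from -0.07 to 0.05. The small subunit median turned to 0.060 without _s_at, _x_at and _a_at probe sets (10 genes left). It turned to 0.075 without genes at or above the 99th percentile (3 left). Most genes left in the first setting, and all in the second, had a mean signal under 9. The small subunit median ran from -0.10 to -0.03 under the other 6 alternatives. The large subunit median ran from -0.02 to 0.03 over 8. Both counts at 1.2-fold stayed 0, except that the second brightest probe set, chosen after the data were seen, gave 3 lower genes of 21. Settings that only leave out genes or raise the limit could give nothing but 0. The looser 1.1-fold limit let through 3 higher and 4 lower genes, as it must admit more. Of the named genes' alternative values, 276 stayed within 0.11 of the main value, the SD of 1 probe set, and 42 did not. Many of the 276 could not move. Settings that only leave out genes keep a gene's value, and a gene with 1 probe set keeps it as the mean. The count of 276 is thus no measure of stability. Another 3 alternative values changed sign from a difference past 1.2-fold. Nip7 went to -0.033 on its second probe set. Tpt1 went to 0.065 on its second probe set and also without _s_at, _x_at and _a_at probe sets. The cause was not tested. The medians of the 4 further lists kept their sign under 6 alternatives, also chosen after the data were seen. That of rRNA synthesis and processing ran from 0.10 to 0.19. That of the other TOP genes ran from -0.10 to -0.005. Of these 6 alternatives, the one that keeps genes at or above the array median left out no gene of the 4 lists. It could thus not move their medians. Centring only added the same small constant to every gene. What saturation at the bright end does to the differences was not tested.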

Other observations

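Probe sets that list several genes, at least 1 of them a ribosomal protein symbol, numbered 102 and carried 30 ribosomal protein symbols beyond the 42 core genes described above. Their mean signals ran from 5.90 to 12.78. Over the 74 with a mean signal of at least 10, 41 were lower in the shDAB2 clone and the median difference was -0.04. Over all 102 the median was 0.01, with differences from -0.46 to 0.39. These values belong to no single gene.

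Among partners of ribosomal proteins in the nucleolar stress response, Mdm2, the ligase that binds Rpl11 protein, read 8.90 on the shDAB2 array and 8.77 on the vector array. The p53 target Cdkn1a read 7.78 and 7.80. Myc, a regulator of ribosome production, read 7.94 and 7.69, a difference of 0.25. Trp53 was not analysed here.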
